A study of Mus musculus with 4 samples.

Results

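A set of 9 genes that T cells use to hold on to other cells and to leave lymph nodes were followed in primary mouse T cells. They were taken by name from 50600 annotated genes, and each matched 1 row of every count table. Selplg and Cd44 encode rolling and matrix receptors. Itgal, Itgb2, Itga4, Itgb1 and Itgb7 encode integrin chains, and Cd69 and S1pr1 encode opposed regulators of exit from the node. The cells came from mice of the C57BL/6NJ strain, with age unknown and sex not collected in the labels. RNA was sequenced in 4 libraries that form 1 group and are numbered as biological replicates 1 to 4. The labels link a protocol for differentiating CD4+ T cells but give no treatment or time, whereas the alignment names in the count tables read Th0, activated and 24h for every library. There was no second group, so the comparisons are between genes within a library and between replicates. All values are gene-level RNA in bulk cells, so fewer cells of a type and less RNA per cell cannot be told apart.

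A T cell in the blood first rolls on vessel walls through glycoproteins such as PSGL-1, the product of Selplg, which bind selectins. It then stops through integrins, each a dimer of 1 alpha and 1 beta chain. LFA-1 (Itgal with Itgb2) binds ICAM proteins, VLA-4 (Itga4 with Itgb1) binds VCAM-1 and fibronectin, and the gut-homing integrin of Itga4 with Itgb7 binds MAdCAM-1. Exit from the node follows sphingosine 1-phosphate, a lipid that is abundant in blood and lymph, through the receptor encoded by S1pr1. CD69, which appears on the surface soon after stimulation, binds that receptor and removes it from the membrane. CD44, the hyaluronan receptor, is widely used as a mark of antigen-experienced cells.

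Libraries held 60102919, 273136467, 48608896 and 47558517 gene-assigned fragments in replicates 1 to 4, and the 9 genes together took between 0.196% and 0.213% of them. Abundance is given as TPM, fragments per kilobase of annotated exon scaled to the same total in every library, as mean ± SD over the 4 libraries (n = 4) unless stated. The 6 defining T-cell markers, among them Cd3e and Trac, were each at 94.7 TPM or more in every library. The 36 markers of B, myeloid, dendritic, natural killer, platelet, red, endothelial and stromal cells summed to between 5.96 and 10.7 TPM, none was above 2.21 TPM, and 16 to 22 of them had no fragment in a given library. Of the 2 CD8 T-cell markers, Cd8b1 was at 46.7 ± 3.55 TPM, between 41.8 and 50.3 in every library, whereas Cd8a was at 0.839 ± 0.0254 TPM. Cd4, 1 of the 6 T-cell markers, was at 697 ± 37.9 TPM, between 653 and 737 in every library. The part of CD8 cells in the levels below was not tested. Xist was at 163 and 150 TPM in replicates 1 and 2 and at 0.715 and 0.696 TPM in replicates 3 and 4. The labels do not name separate animals, so p-values cover only how far these samples differ, and part of that may be technical.

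Promoter sequence was at hand for 4 of the 9 genes. Those of the 3 chains that share the alpha 4 partnership are shown, since the level of these chains relative to one another is the main contrast below. Each is the 250 bases before the RefSeq start site on the strand of the gene, 5′ to 3′, in build GRCm38.p6: chr2:79255176-79255425 on the plus strand for Itga4, chr8:128685404-128685653 on the plus strand for Itgb1 and chr15:102231936-102232185 on the minus strand for Itgb7. Capitals mark the motif CACCC, a core bound by KLF-family factors, and its reverse complement GGGTG, which do not overlap in these windows.

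Itga4: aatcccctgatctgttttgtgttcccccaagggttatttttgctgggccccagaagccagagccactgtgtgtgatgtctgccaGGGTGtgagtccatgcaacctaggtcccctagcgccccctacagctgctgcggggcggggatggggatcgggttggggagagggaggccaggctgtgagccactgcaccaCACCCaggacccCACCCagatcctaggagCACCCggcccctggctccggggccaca

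Itgb1: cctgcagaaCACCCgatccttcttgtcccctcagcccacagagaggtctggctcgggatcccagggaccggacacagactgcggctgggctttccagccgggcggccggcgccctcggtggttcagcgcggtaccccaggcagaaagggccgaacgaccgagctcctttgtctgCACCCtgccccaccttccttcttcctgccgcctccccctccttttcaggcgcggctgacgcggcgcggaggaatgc

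Itgb7: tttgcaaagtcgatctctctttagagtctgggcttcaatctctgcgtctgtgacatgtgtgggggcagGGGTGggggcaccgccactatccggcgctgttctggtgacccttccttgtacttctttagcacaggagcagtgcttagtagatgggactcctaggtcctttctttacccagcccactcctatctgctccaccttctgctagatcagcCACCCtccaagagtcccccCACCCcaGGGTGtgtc

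The motif occurred 4 times before Itga4, 2 times before Itgb1 and 4 times before Itgb7, and it was absent before Cd44. Of 32851 promoter windows of the same length 52.0% held it at least once, so its presence does not set these genes apart. The Itgb1 window held 21 CpG dinucleotides at 68.0% GC, against 6 at 64.0% GC for Itga4 and 5 at 56.0% GC for Itgb7. The median window held 6. In each of the 3 genes the start site was the outermost exon base counted in the deposited tables.

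The 2 chains of LFA-1 led the list. Itgal (ENSMUSG00000030830.18, mm10 chromosome 7, 127296260 to 127335138) had 440, 506, 498 and 486 TPM in replicates 1 to 4. Its mean was 483 ± 29.6 TPM, rank 300 of the 11483 genes at 1 TPM or more in every library. Itgb2 (ENSMUSG00000000290.13, chromosome 10, 77530252 to 77565708), the beta chain common to all leukocyte-specific CD11 integrins, had 346, 405, 385 and 391 TPM, a mean of 382 ± 24.9. Replicate 1 was the lowest library for both genes and replicate 2 the highest. The ratio of the chains was nearly constant, at 1.27, 1.25, 1.30 and 1.24 TPM of Itgal per TPM of Itgb2. On the log2(TPM + 1) scale Itgal exceeded Itgb2 by 0.34 ± 0.03, in 4 of 4 libraries. The other alpha chains that pair with Itgb2 were almost absent, with Itgam at 0.0611 ± 0.0468 TPM, Itgad at 0.0141 ± 0.0165 and no fragment of Itgax in any library. Itgal therefore made up 99.98% of the RNA of the 4 alpha partners of Itgb2.

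Itgb1 was the next gene, and its alpha 4 partner was far below it. Itgb1 (ENSMUSG00000025809.15, chromosome 8, 128685654 to 128733200) encodes the beta chain of the VLA integrins and had 222, 225, 211 and 211 TPM, a mean of 217 ± 7.37. Itga4 (ENSMUSG00000027009.18, chromosome 2, 79255426 to 79333123) had 16.9, 17.3, 18.1 and 17.3 TPM, a mean of 17.4 ± 0.502. No library of one gene came near the other, and Itgb1 RNA was 12.5 ± 0.707 times that of Itga4. The difference of Itga4 minus Itgb1 was -3.57 ± 0.08 on the log2(TPM + 1) scale, negative in 4 of 4 libraries. Itgb1 also serves 11 alpha chains other than Itga4. Of these, Itga5, a fibronectin receptor chain, was at 16.3 ± 1.98 TPM, Itga6, a laminin receptor chain, at 15.3 ± 1.14, and Itgav, a vitronectin receptor chain, at 13.3 ± 1.14. Itga3 (3.93 ± 0.480 TPM) and Itga10 (3.45 ± 0.303) were lower, and no fragment of Itga1, Itga8 or Itga11 was counted. The 12 alpha partners of Itgb1 summed to 70.3 ± 2.18 TPM, so that the alpha RNA was 0.324 ± 0.0194 of the Itgb1 RNA, and Itga4 made up 24.8% ± 0.0937 of that sum.

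Itgb7 was the member that differed most between libraries. The gene (ENSMUSG00000001281.9, chromosome 15, 102215995 to 102231935) had 54.5, 69.7, 75.9 and 77.2 TPM in replicates 1 to 4, a mean of 69.3 ± 10.4. Replicate 1 lay below the other libraries, beyond counting error, since the 95% exact Poisson interval there ran from 52.5 to 56.7 TPM and covers counting error only. Itgb1 exceeded Itgb7 by 1.65 ± 0.26 on the log2(TPM + 1) scale, in 4 of 4 libraries, and the ratio of Itgb1 to Itgb7 ran from 4.07 in replicate 1 through 3.23 in replicate 2 to 2.78 and 2.73 in replicates 3 and 4. Itga4, the partner that both beta chains share, was also below Itgb7, with -1.92 ± 0.20 on the same scale. Itgae, the other alpha chain of Itgb7 and a marker of cells resident in epithelium, stayed below 1 TPM in all libraries. Itga4 thus made up 98.5% ± 0.627 of the summed RNA of the 2 alpha partners of Itgb7. The same Itga4 RNA is also counted in full in the sum for Itgb1.

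**Figure D1:**
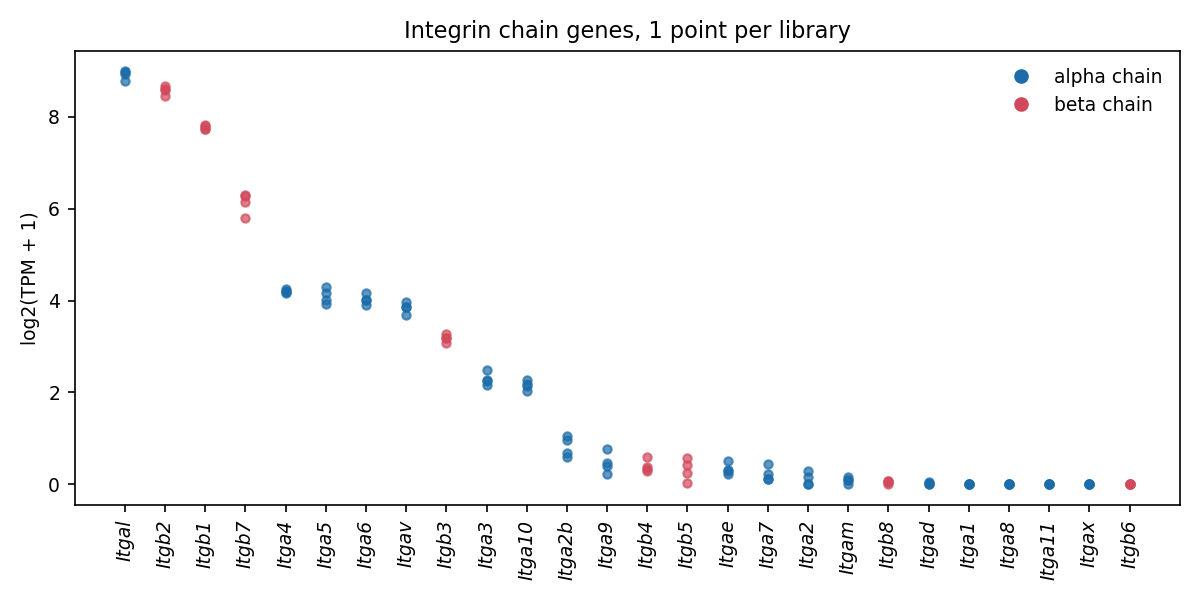
Level of the 26 integrin chain genes in log2(TPM + 1), ordered by mean, with 1 point per library (4 per gene), alpha chains in blue and beta chains in red. Itgal, Itgb2, Itgb1 and Itgb7 stand above a group near 15 TPM that holds Itga4, Itga5, Itga6 and Itgav, and 14 genes lie below 1 TPM in every library.

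Across the whole integrin family of 26 genes, the 5 chains on the list held 94.9% ± 0.144 of the summed TPM, and the 2 chains of LFA-1 alone held 70.2% ± 0.798. Of the 26, 8 reached 10 TPM in all 4 libraries, against 16.0% of all annotated genes. Another 14 stayed under 1 TPM throughout, where 73.2% of all annotated genes lay. Itgb3, the beta chain of the platelet and vitronectin receptors, was between these at 8.07 ± 0.526 TPM. No fragment of Itgb6, an epithelial beta chain, was counted in any library. The median gene of the family was at 0.356 TPM.

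Selplg and Cd44, which act in rolling and matrix contact, were steady at intermediate levels. Selplg (ENSMUSG00000048163.13, chromosome 5, 113818536 to 113832644) had 92.9, 100.3, 101 and 103 TPM, a mean of 99.3 ± 4.42, with replicate 1 lowest. Cd44 (ENSMUSG00000005087.17, chromosome 2, 102811141 to 102901665) had 64.0, 69.3, 61.1 and 65.1 TPM, a mean of 64.9 ± 3.38, with replicate 3 lowest. The counts cover all exons of Cd44 together, so its standard and variant-exon forms are not separated here. PSGL-1 binds selectins only after sugars and sulfate have been added to it. Of 20 genes for selectins, their scaffolds and the enzymes of this modification, 10 reached 10 TPM in all 4 libraries. The share over all annotated genes was 16.0%. Spn, encoding the sialomucin CD43, led with 374 ± 25.7 TPM, followed by the galactosyltransferase gene B4galt1 (95.6 ± 1.90), the sialyltransferase gene St3gal4 (72.8 ± 3.41) and the sulfotransferase gene Chst2 (61.1 ± 3.09). Both tyrosine sulfotransferase genes were present, Tpst2 at 53.2 ± 2.35 TPM and Tpst1 at 46.4 ± 2.15. Fut7, whose fucosyltransferase completes the selectin-binding sugar, was at 5.75 ± 0.712 TPM, and Gcnt1, whose enzyme starts the core 2 branch that carries it, stayed below 1 TPM in each library (0.305 ± 0.0685). No fragment of Sele, Cd34, Glycam1 or Chst4 was counted, which at 3 fragments allows at most 0.0734, 0.0293, 0.342 and 0.0937 TPM in the shallowest library.

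Among 17 partners of CD44, the genes of the linker proteins that tie it to the cortex were high. Msn, encoding moesin, had 464 ± 20.9 TPM, Ezr, encoding ezrin, 309 ± 4.50 and Rdx, encoding radixin, 194 ± 7.90. The sheddases that cut CD44 were present, with Adam10 at 158 ± 3.83 and Adam17 at 42.8 ± 0.702 TPM, as was Hmmr, a hyaluronan-binding protein of dividing cells, at 52.3 ± 3.14. The hyaluronan synthase genes Has1 and Has2 and the hyaluronan receptor genes Lyve1 and Stab2 had no fragment, nor had Esrp1, an epithelial splicing regulator of Cd44.

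Cd69 and S1pr1 lay far apart. Cd69 (ENSMUSG00000030156.5, chromosome 6, 129267325 to 129275436) had 84.3, 80.1, 78.6 and 82.6 TPM, a mean of 81.4 ± 2.56 and one of the narrowest spreads on the list. S1pr1 (ENSMUSG00000045092.8, chromosome 3, 115710433 to 115715072) had 7.53, 8.39, 8.08 and 6.55 TPM, a mean of 7.64 ± 0.807, the lowest of the 9. It rested on 407, 2023, 348 and 280 fragments, and the 95% exact Poisson interval in replicate 4, the lowest library, was 5.81 to 7.37 TPM. Cd69 RNA was 11.2, 9.55, 9.72 and 12.6 times that of S1pr1 in replicates 1 to 4, a difference of 3.26 ± 0.17 on the log2(TPM + 1) scale in 4 of 4 libraries. Among the receptors for sphingosine 1-phosphate, S1pr4 was above S1pr1 in every library, at 32.1 ± 0.675 TPM, and S1pr2, which opposes migration in several cell types, was below it at 3.40 ± 0.402. S1pr3 and S1pr5 stayed below 1 TPM. The genes that pass on or end the receptor signal were abundant. Grk2, encoding the kinase that desensitises the receptor, had 361 ± 20.5 TPM, and the inhibitory G-protein genes Gnai2 and Gnai3 had 345 ± 16.7 and 187 ± 8.43. Gna13 was at 131 ± 3.29, the arrestin gene Arrb2 at 124 ± 7.52 and the endocytic dynamin gene Dnm2 at 111 ± 6.07 TPM. Of the 22 genes in this pathway, S1pr1 included, 11 reached 10 TPM in all 4 libraries, against 16.0% of all annotated genes. The exporter gene Spns2 and the phosphatase gene Sgpp2 had no fragment. Sphk2, 1 of the 2 kinases that make the lipid, was at 61.7 ± 4.39 TPM, while Sphk1 was below 1 TPM.

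Genes linked to the homing, retention or exit of T cells, for nodes and for other tissues, differed widely in level. Of 12 such genes 6 reached 10 TPM in all 4 libraries, against 16.0% of all annotated genes. Ccr7, the receptor for the chemokines of the node, was by far the highest at 605 ± 15.1 TPM, followed by Gpr183, an oxysterol receptor that positions cells within the node, at 176 ± 10.1, and Ccr4, a skin-homing chemokine receptor, at 52.4 ± 4.98. Foxo1, a transcription factor of resting cells, was at 34.4 ± 0.748 and Klf2, which it induces and which in turn drives S1pr1, at 19.9 ± 0.893. The gut and skin receptor genes Ccr10 and Gpr15 had no fragment.

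**Figure D2:**
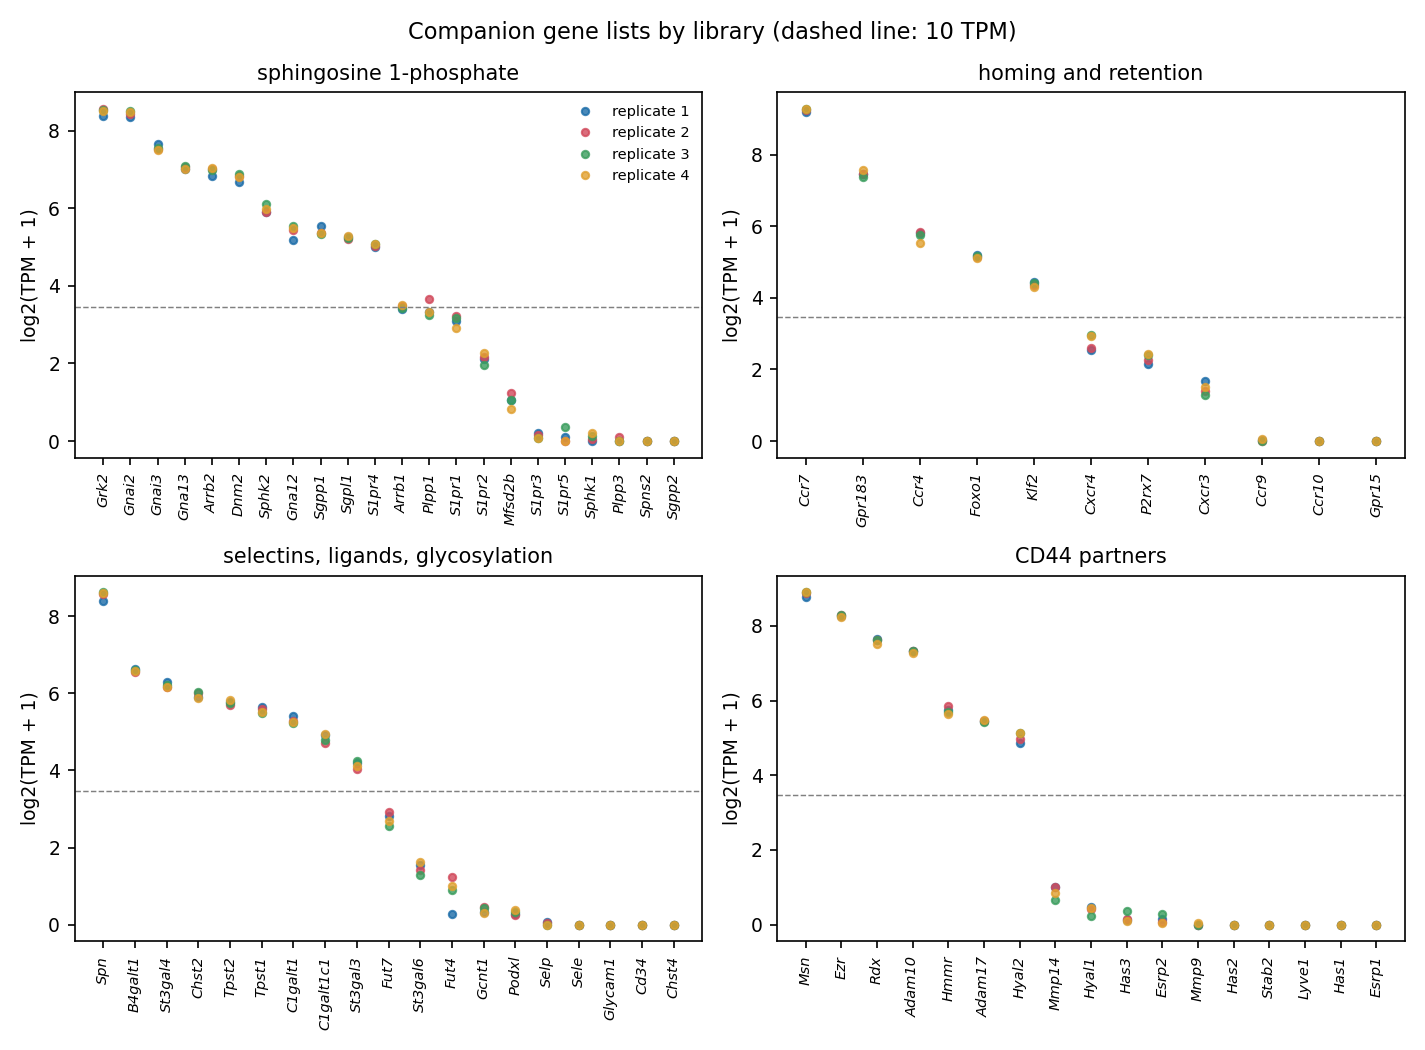
Level of the genes of 4 lists in log2(TPM + 1), ordered by mean within a list, with 1 point per library and a dashed line at 10 TPM. S1pr1 lies below the line, next to Plpp1 and Arrb1, and well below Grk2, Gnai2 and S1pr4.

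Genes that act on integrin activation were broadly transcribed. The list mixes genes that promote it with genes that restrain it, such as Flna. Of 31 genes 24 reached 10 TPM in all 4 libraries, against 16.0% of all annotated genes. The median gene was at 52.0 TPM. Rap1b, the small GTPase central to activation, had 576 ± 48.2 TPM and Fermt3, encoding the blood-cell kindlin, 404 ± 25.5. Tln1, encoding talin, was at 234 ± 21.9 TPM, with Parvg (224 ± 14.0), Flna (221 ± 15.7) and Rapgef1 (188 ± 15.7) close to it. Rasgrp2, the exchange factor that activates Rap1 in platelets and lymphocytes, was low at 2.83 ± 0.153 TPM. Of 11 genes for ligands of integrins 2 reached 10 TPM in all 4 libraries. Of all annotated genes 16.0% did, so this count does not set the ligand genes apart. The 2 were Icam2 at 52.1 ± 0.838 and Icam1 at 33.3 ± 4.76 TPM, whereas Vcam1, Madcam1 and Fn1 were below 1. Other adhesion genes of leukocytes, 18 of 19 matched by symbol, were led by Cd6 (591 ± 34.6 TPM) and Bsg (548 ± 17.0). Next came Cd2 (244 ± 16.2), Emb (192 ± 10.9), Cd226 (180 ± 5.94) and Cd164 (175 ± 7.17). Of the 18, 11 reached 10 TPM throughout, against 16.0% of all annotated genes.

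Put in order, the 9 genes ran Itgal, Itgb2, Itgb1, Selplg, Cd69, Itgb7, Cd44, Itga4 and S1pr1. All but S1pr1, 8 of 9, reached 10 TPM in all 4 libraries, as did 16.0% of all annotated genes. Neighbours in this order did not overlap between libraries, except Itgb7 and Cd44, whose ranges of 54.5 to 77.2 and 61.1 to 69.3 TPM crossed and which are not separated. Over all 36 pairs of the 9 genes, 35 had the same direction in every library. With 4 libraries the smallest p that a two-sided exact test by sign flips allows is 1 in 8, and 0.129 after Benjamini-Hochberg adjustment over the 36 pairs, so the design cannot bring any pair under 0.05.

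**Figure D3:**
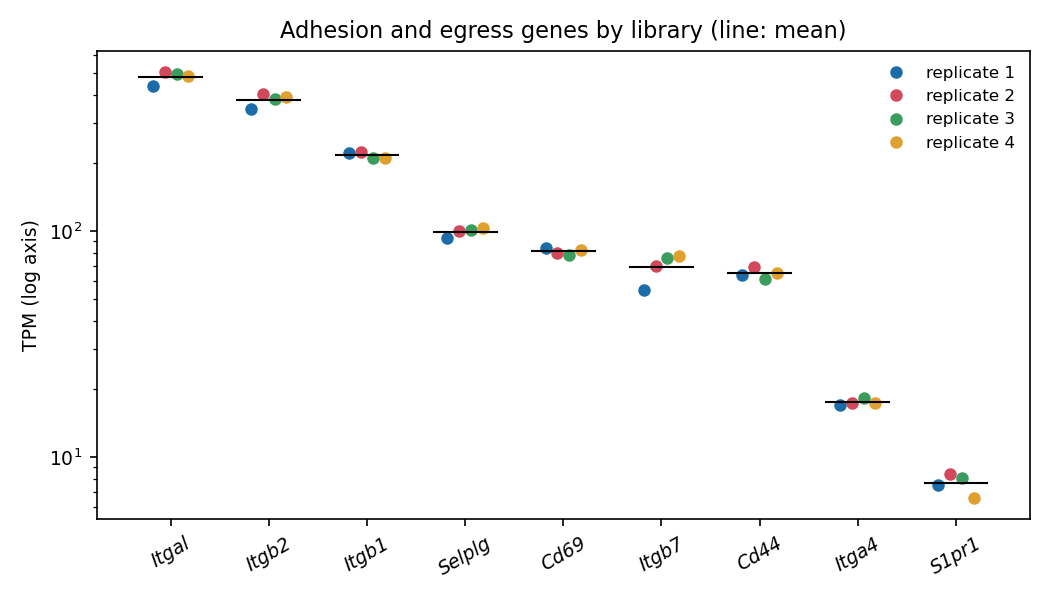
TPM of the 9 genes in each of the 4 libraries on a log axis, ordered by mean, with a black line at the mean. The libraries lie within 15.0% (SD over mean) for every gene, the widest being Itgb7, and only Itgb7 and Cd44 cross.

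The order depends on the length that each count is divided by. The count tables give the union of all exons of all annotated transcripts, which for Cd69 is 6509 bases, 3.86 times the 1687 bases of its principal coding transcript in GENCODE vM21. For Selplg the 2 lengths are 4272 and 1855 bases. When the principal transcript length was used for every gene, a choice made after the data were seen, a gene whose length did not change, such as S1pr1, fell to 0.693 of its value. Cd69 then rose to 218 TPM, above Itgb1 (161), and Selplg to 159, close to Itgb1. Cd69 RNA was then 41.5 ± 5.53 times that of S1pr1. Cd44 (54.3 TPM) and Itgb7 (49.1) changed places, while Itgal (423), Itgb2 (272), Itga4 (17.3) and S1pr1 (5.30) kept theirs. The ratio of Itgb1 to Itga4 became 9.33 ± 0.528. Fragments from other transcripts of a gene stay in its count either way, since the tables do not assign fragments to transcripts. Among the companion genes named above, Rasgrp2 rose to 10.6 TPM and Arrb1 from 9.97 to 20.8 TPM under that length. Cd226 and Emb fell to 65.5 and 102 TPM. Itga6 rose to 22.2 TPM, above Itga4, and was then the largest of the 12 alpha partners of Itgb1, at 31.2% of their sum. That sum was 0.443 ± 0.0297 of the Itgb1 RNA.

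**Figure D4:**
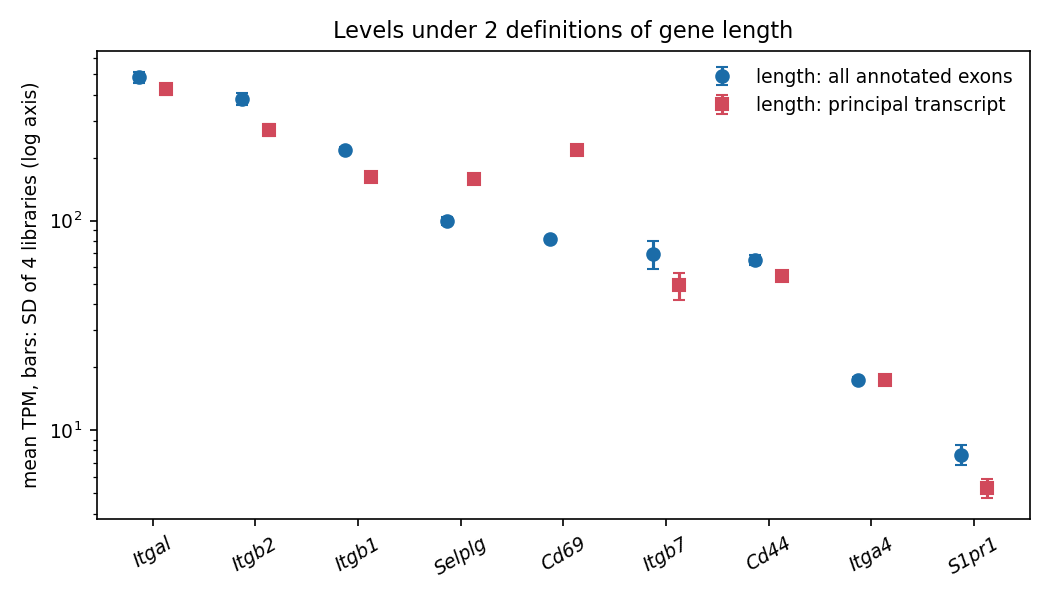
Mean TPM of the 9 genes with SD over 4 libraries as bars, on a log axis, with the length taken as all annotated exons (blue) or as the principal transcript (red). Cd69 moves from 81.4 to 218 and Selplg from 99.3 to 159, while the other 7 stay or fall.

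Variation between replicates was tested with edgeR over all 12712 genes past a filter on low counts, by the goodness of fit of a model with 1 mean per gene. Of all genes tested 0.362% varied beyond genes of like abundance at a Benjamini-Hochberg adjusted p under 0.05. All 9 genes passed the filter and 0 of 9 were called by edgeR, and with the dispersion trend of DESeq2 0 of 9 were called as well. A gene that was not called is not shown to be constant, and the test has little power for differences as small as those among these libraries. Itgb7 alone had an unadjusted p under 0.05 (residual deviance 15.7 on 3 degrees of freedom, edgeR unadjusted p = 0.00133, adjusted p = 0.196). An unadjusted p under 0.05 was found in 5.54% of all genes tested. The edgeR adjusted p of the other 8 genes was 1.00 to 2 decimals. The median SD over mean of the 9 genes was 5.21%, against 7.53% over all genes tested. The genes tested were not matched to the 9 for abundance, so these medians do not set the 9 apart. The median residual deviance, which takes abundance into account, was 1.60 for the 9 genes and 1.98 over all genes tested. S1pr1, the least abundant, had 10.6%, with a counting error of 5.98% in its shallowest library, whereas Itgb7 had 15.0% with a counting error of 1.94%.

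Replicate 1 was the lowest library for 5 of the 9 genes, namely Selplg, Itgal, Itgb2, Itga4 and Itgb7, as it was for 34.0% of all genes tested. Xist divided the libraries in another way, with replicates 1 and 2 high and replicates 3 and 4 low. The part of that division in the differences between replicates was not tested. The GC content of the principal transcripts was 58.6% for Selplg, 58.0% for Itgb7, 53.2% for Itgal and 53.1% for Itgb2, and between 41.1% and 48.8% for the other 5. On the log2(TPM + 1) scale the deviation of replicate 1 from the mean of the gene was -0.33 for Itgb7, -0.14 for Itgb2, -0.13 for Itgal and -0.09 for Selplg, and between -0.04 and 0.05 for the other 5. Across all tested genes with a GC value (12692, which are not independent), Spearman's rho of this deviation with GC content was -0.367 in replicate 1 and between 0.0887 and 0.211 in the other libraries. Across the 9 genes, which share the same library and are not replicates of one another, it was -0.667. The part of GC content in the differences between replicates was not tested. With trends on GC content and length removed from each library, Itgb7 was at 57.6, 68.3, 74.1 and 76.5 TPM (edgeR adjusted p = 0.329). Replicate 1 then stayed lowest for Itgb7, Itgal, Itgb2, Selplg, Itga4 and now Cd69. Without replicate 1, the mean of Itgb7 was 74.3 TPM and its edgeR adjusted p 1.00. Leaving out the library farthest from the others narrows the spread by construction, so this fit cannot tell why replicate 1 was low.

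**Figure D5:**
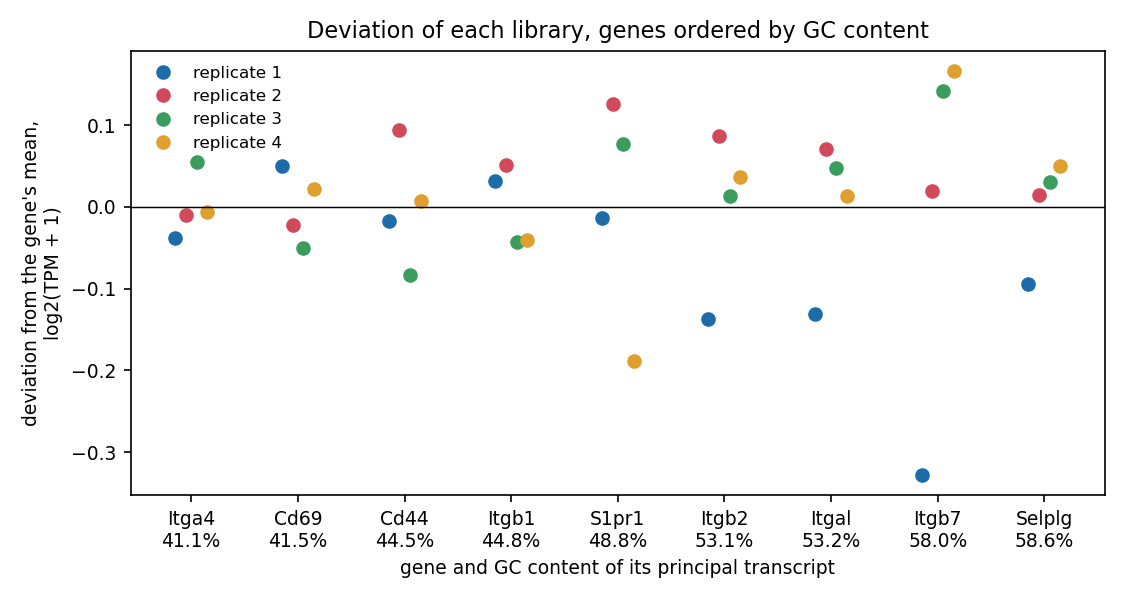
Deviation of each library from the mean of the gene on the log2(TPM + 1) scale, with the 9 genes ordered from low to high GC content and 1 point per library. Replicate 1 (blue) lies between -0.33 and -0.09 for the 4 genes above 50% GC and between -0.04 and 0.05 for the other 5.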

How the data were processed

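RNA of T cells was counted in 4 libraries of 1 group, taken from the cell type label, with replicate numbers from the labels. The authors deposited raw counts per gene. FeatureCounts 1.4.6-p4, per the file headers, assigned fragments with both ends aligned to exons of GENCODE vM13 with strand setting 2, without the options for fragments that map to several places or overlap several genes. The build is mm10 per the labels, and alignment settings are not given in the sources used here. No other gene on the same strand shares exon bases with any of the 9 genes.

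TPM was computed here from counts and exon length. Symbols came from GENCODE vM21 (50376 of 50600 identifiers matched), and promoter sequences and start sites from RefSeq. For variation between libraries edgeR 4.0.16 was used in R 4.3.3, with filterByExpr at a minimum count of 10, TMM factors between 0.998 and 1.002, trended dispersion, residual deviance against chi-square with 3 degrees of freedom. The script was tested on simulated data. DESeq2 1.42.0 served for alternatives, and Python 3.11.15 (scipy 1.17.1, pandas 2.3.3) for the rest. Counts of the 6 pairs of libraries gave a chi-square of 9.14 to 29.1 per degree of freedom, more than sampling noise, so none was treated as another deposited again. The chi-square does not show that they come from separate animals. The Xist levels set apart only replicates 1 and 2 from replicates 3 and 4. Depth gives a floor of 3 fragments, which is 0.0379 to 0.214 TPM for a gene with 1 kilobase of exon and less for longer genes. This floor covers counting error only.

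The members, lists and tests were chosen with earlier results of these data known. Named are the 9 members, up to 6 genes of highest mean at 10 TPM or more in each of 8 companion lists, integrins at 1 TPM or more, and genes without a fragment. The values of 1 companion gene are not reported here, though it is counted with its lists. Fut7, Gcnt1, Rasgrp2, Sphk1, S1pr2, S1pr3, S1pr5, Itgam, Itgad, Itgae, Sphk2, S1pr4, Vcam1, Madcam1, Fn1, Plpp1, Arrb1, Cd8a, Cd8b1 and Xist fall outside that rule and were chosen after their values were seen. Cd4 also falls outside that rule, and its value was added after it was seen. A protein comparison was planned, and protein sequences were not used here. Alternatives are in the closing section. Principal transcript lengths and removal of GC trends were added after the data were seen.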

Additional observations from a re-analysis of the deposited data

Results flagged for a closer look

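None of the 9 genes, and none of the 5 chain differences, had a library set apart by a gap too large a share of the range for 4 samples. Over 53 sets of 4 values, companion genes included, 3 were set apart, and chance flags about 1 in 20. Rap1b was highest in replicate 1, at 648 TPM against 543 to 559 in the others. Tln1, encoding talin, was lowest in replicate 1, at 202 TPM against 242.9 to 249.3. Adam10 was lowest in replicate 4, at 152 TPM against 160 to 161. None of the 3 passed the edgeR threshold for variation between replicates, and the cause was not tested.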

How the results depend on the processing

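The order of the 9 genes by mean was the same with each replicate left out (0 places changed in each), with replicate 2 thinned to the shallowest total, without mitochondrial and rRNA-like genes, as FPKM with TMM or DESeq2 factors, as a median and with GC and length trends removed. Under principal transcript lengths 5 of the 9 places changed. Mean levels moved by less than 1 SD under every alternative except FPKM, which scales all 9 to 0.29 of their TPM, and principal lengths, which moved 8 of 9, to between 0.693 and 2.67 times the TPM given. Without length scaling, on the log2(CPM + 1) scale, Itga4 exceeded Itgb7 by 0.36, the opposite direction, as the Itga4 exons are the longer ones; the other 4 chain differences kept their direction under all alternatives. Pairs with 1 direction in every library numbered 34 to 36 throughout, but 3 of the 36 pairs turned their direction under principal lengths and 4 without length scaling. Members varying between replicates numbered 0 in the fit reported and in all 11 alternatives. Over all genes tested 46 were called, 25 without replicate 2 (the deepest library), 31 to 40 without another replicate and 862 with a common dispersion. The adjusted p of Itgb7 ran from 0.124 (dispersion trend of DESeq2) to 1.00 (without replicate 1). On the FPKM scale 7 of 9 members, 4 of 26 integrins, 1 of 11 ligand genes and 3 of 12 homing genes reached 10. No paired analysis between groups was possible because the labels give 1 group. Depth limits S1pr1 most, with 280 fragments in replicate 4.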
